A study of Rattus norvegicus with 18 samples.

Results

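The 10 genes described here encode cytosolic heat shock chaperones and the cochaperones that work with them: Hsph1, Hspa4, Hspa8, Dnaja1, Dnajb1, Hsp90ab1, Hsp90aa1, Fkbp4, Stip1 and Hspb1. They were chosen by symbol from a table of 33657 rat genes, and all 10 were found and passed the filter on low values, as did 11945 genes in all. The choice was made with earlier results of these data known, so their counts beside all genes are a description only. The livers came from male rats 18 weeks old, in 6 groups with 3 RNA libraries each. The normal control was not obese and was given water. The other 5 groups carried the label of obesity: an obese control on water, a group on orlistat (a lipase inhibitor used against obesity, here the positive control), and 3 groups fed plantain in a low, a medium or a high dose. The labels state no strain, diet, cause of the obesity, dose amount or time of day of sampling. Nor do they say that a group's libraries are separate animals. The p-values thus measure the spread between libraries alone, and that spread may be technical.

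Chaperones of the HSP70 family, to which Hspa8 belongs, hold unfolded stretches of protein and release them in a cycle driven by ATP. J-domain proteins such as Dnaja1 and Dnajb1 deliver substrates and start ATP hydrolysis, and the HSP110 proteins Hsph1 and Hspa4 exchange the spent nucleotide. Stip1 bridges HSP70 to HSP90, which completes the folding of kinases and steroid receptors with helpers such as Fkbp4, while the small heat shock protein Hspb1 keeps unfolded proteins from clumping. Many of these genes are switched on in stress by heat shock factor 1, the product of Hsf1, which binds heat shock elements made of inverted GAA units. The liver makes large amounts of secreted protein and expresses these chaperones without added stress.

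Reads recovered from the deposited values ran from 16.6 to 26.2 M (mega) per library, and the normal control was the deepest group at 25.5 to 26.2 M. All 10 hepatocyte markers examined were expressed, with summed levels from 80061 FPKM (sequenced fragments per unit of gene length, scaled to library size) in orlistat to 99214 FPKM in the obese control. Markers of other cells differed between groups as well (limma, adjusted p below 0.05). The counts below stand beside 55.1% of all genes called between the controls, with 26.7% higher, and 51.8% with orlistat, 33.0% at the low, 41.9% at the medium and 51.9% at the high dose, each against the obese control. Of 11 markers of Kupffer cells, the macrophages of the liver, 11 were higher in the obese than in the normal control, and their summed level went from 189 to 190.1 FPKM up to 317 to 327 FPKM. Against the obese control, 10 of the 11 were higher at the low dose, with a summed level of 402 to 413 FPKM, while 10 were lower at the medium dose (262 to 269.9 FPKM) and 9 at the high dose (267 to 272 FPKM). The sum was 331 to 351 FPKM with orlistat. With every library given the same total of length-scaled reads (TPM), 8 were lower at the medium dose. At the high dose 5 were then lower and 1 higher. After quantile normalization 8 were lower at the medium dose, and 8 lower and 1 higher at the high dose. Of 9 liver endothelial markers, 7 were higher in the obese control and 8 were higher again in each of the 4 treatments. Their sum was 65.4 to 67.2 FPKM in the normal control, 87.5 to 88.2 in the obese control and 121 to 149 in the treated groups. The sum of 10 stellate cell markers was 183 to 185 FPKM in the normal and 258 to 262 in the obese control. It was 214 to 221 FPKM with orlistat, and 205 to 208, 205 to 217 and 200 to 203 from the low to the high dose. For 7 red blood cell markers the mean sum was 872 FPKM in the normal and 1505 in the obese control. With orlistat and from the low to the high dose it was 1300, 1027, 1216 and 1204 FPKM. Both were highest in the obese control, as the summed chaperones were. Of 12 immediate early genes tested, which respond to handling of the tissue, 10 were higher at the low dose than in the obese control and none lower. The sum of the 15 such genes listed differed between the controls too, at 331 to 336 FPKM in the normal and 280 to 283 in the obese control. It was 367 to 377 FPKM at the low dose, 260 to 269 with orlistat, 259 to 266 at the medium and 249 to 263 at the high dose. Of 13 mitochondrially encoded transcripts, 11 were higher in the obese control, while against it 13 were lower with orlistat, 8 at the low, 12 at the medium and 13 at the high dose. No marker in the table was at 0 in all libraries. The part of these shifts in the chaperone values was not tested, and in bulk liver fewer cells of a type and less RNA per cell cannot be told apart.

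The upstream sequence of the genes was read to see where the units of a heat shock element lie. RefSeq's promoter table (build GRCr8) held 9 of the 10 genes, Hsp90aa1 not among them. In the 250 bases before each annotated start, 7 of the 9 genes held a pair of facing units, written GAANNTTC or TTCNNGAA, while 13.5% of 33469 rat promoters of the same length did. Each motif reads the same on both strands. Hsph1 and Hspa8 also held 3 units in a row, GAANNTTCNNGAA or its complement TTCNNGAANNTTC, which contain both pairs and were found in 0.663% of promoters. Hsph1 held the triple from base −36 to −24, and Hspa8 held it from −213 to −201 and again from −55 to −43. Fkbp4, Dnaja1, Dnajb1 and Stip1 held 1 pair each and Hspb1 held 2, whereas Hsp90ab1 and Hspa4 held none in this window. A match describes letters and does not show a bound site. Hsp90ab1, which held no pair here, was nevertheless higher in the obese than in the normal control, by 0.60 on the log2 scale. Whether the motifs bear on the levels was not tested. The 5 sequences below are those of the HSP110 relatives Hsph1 and Hspa4, which differed in their levels, of Hspa8 and Fkbp4, and of Dnajb1, which holds a pair and moved little; capitals mark the pairs and triples. They lie at chr12:10427118-10427367 on the plus strand, chr10:37949836-37950085 on the minus strand, chr8:50080264-50080513 on the plus strand, chr4:163397919-163398168 on the minus strand and chr19:41431142-41431391 on the minus strand. For Hsph1 and Dnajb1 these strands are opposite to those of the deposited coordinates. Why they differ was not tested, so the positions in these promoters are less certain.
Hsph1: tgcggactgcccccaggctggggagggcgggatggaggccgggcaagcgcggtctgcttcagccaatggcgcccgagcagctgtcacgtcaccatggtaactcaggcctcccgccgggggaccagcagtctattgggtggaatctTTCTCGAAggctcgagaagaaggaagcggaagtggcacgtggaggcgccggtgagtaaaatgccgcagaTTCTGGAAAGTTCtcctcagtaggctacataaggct
Hspa4: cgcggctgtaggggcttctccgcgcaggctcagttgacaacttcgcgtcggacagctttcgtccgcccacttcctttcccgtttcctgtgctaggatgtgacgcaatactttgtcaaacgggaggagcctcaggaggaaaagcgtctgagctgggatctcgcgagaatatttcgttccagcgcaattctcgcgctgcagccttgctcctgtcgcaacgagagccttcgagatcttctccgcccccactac
Hspa8: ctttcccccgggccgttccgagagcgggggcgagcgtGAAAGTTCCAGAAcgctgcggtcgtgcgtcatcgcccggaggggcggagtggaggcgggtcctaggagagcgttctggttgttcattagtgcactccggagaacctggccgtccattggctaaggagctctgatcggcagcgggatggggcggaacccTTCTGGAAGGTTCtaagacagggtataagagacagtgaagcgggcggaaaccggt
Fkbp4: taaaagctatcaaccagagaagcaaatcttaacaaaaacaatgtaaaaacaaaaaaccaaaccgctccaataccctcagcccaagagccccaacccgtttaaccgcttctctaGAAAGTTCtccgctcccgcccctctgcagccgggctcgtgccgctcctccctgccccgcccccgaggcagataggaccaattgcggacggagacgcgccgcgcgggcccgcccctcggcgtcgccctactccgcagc
Dnajb1: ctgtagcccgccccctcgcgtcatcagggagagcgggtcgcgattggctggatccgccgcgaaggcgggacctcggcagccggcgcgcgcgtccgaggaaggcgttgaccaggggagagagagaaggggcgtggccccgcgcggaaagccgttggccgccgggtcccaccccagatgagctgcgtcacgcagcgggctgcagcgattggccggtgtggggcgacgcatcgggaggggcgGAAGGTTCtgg

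**Figure D1:**
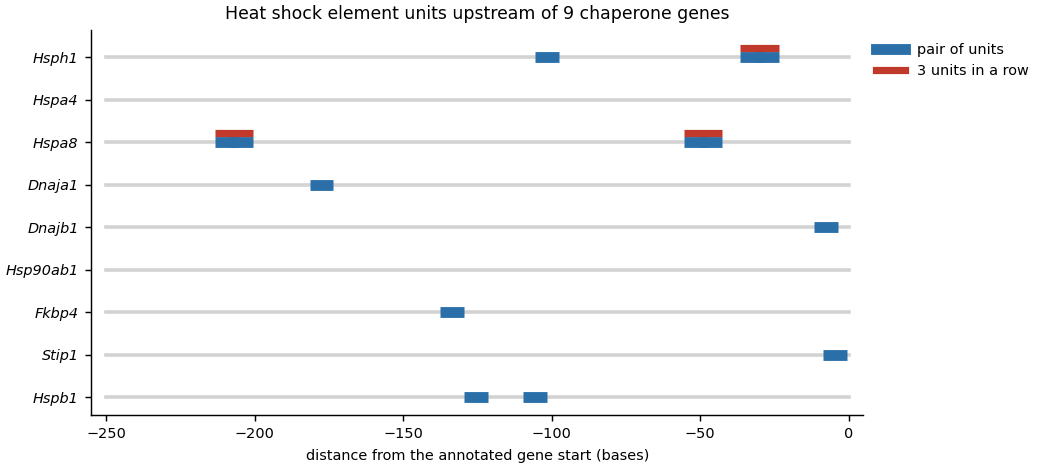
Positions of heat shock element units upstream of 9 chaperone genes. The horizontal axis gives the distance from the annotated gene start in bases, blue bars are pairs of units and red bars are 3 units in a row. Only Hsph1 and Hspa8 carry red bars among these 9 genes, and Hspa4 and Hsp90ab1 carry none of either kind in the 250 bases drawn.

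Levels are given as FPKM, which are scaled by gene length and can be compared between genes. Differences between groups are of the mean of log2(FPKM + 1), fitted by limma over all 11945 genes and 18 libraries, with p-values adjusted over all genes and called below 0.05. The 10 genes together came to 648 ± 7.6 FPKM in the normal control (mean ± SD, n = 3 in every group) and 953 ± 13.4 FPKM in the obese control, 1.47 times as much. The sum was 787 ± 17.0 FPKM with orlistat, 791 ± 12.2 at the low, 706 ± 11.003 at the medium and 745 ± 8.1 at the high dose, so every treated group lay between the controls without overlap. On the TPM scale, which gives every library the same total of length-scaled reads, the obese control's sum was 1.35 times that of the normal control. Most of the sum was made by Hsp90ab1, Dnaja1 and Hspa8.

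Across the 6 groups 9 of the 10 genes differed (limma F-test), where 72.1% of all genes tested did. In the obese against the normal control 7 of the 10 were higher and none was lower, beside 55.1% of all genes called, with 26.7% higher and 28.4% lower. The median difference of the 10 was 0.67 on the log2 scale, and that of all genes 0.00. Groups did not overlap for 8 of the 10 genes, against 62.5% of all genes. Under TPM the count was 6 higher and 1 lower, since Dnaja1 was no longer called and Hspa4 was called lower. That scale moved the median of all genes by −0.11 in this comparison. Against the obese control it moved it by 0.14 with orlistat and by 0.05, 0.08 and 0.15 from the low to the high dose.

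**Figure D2:**
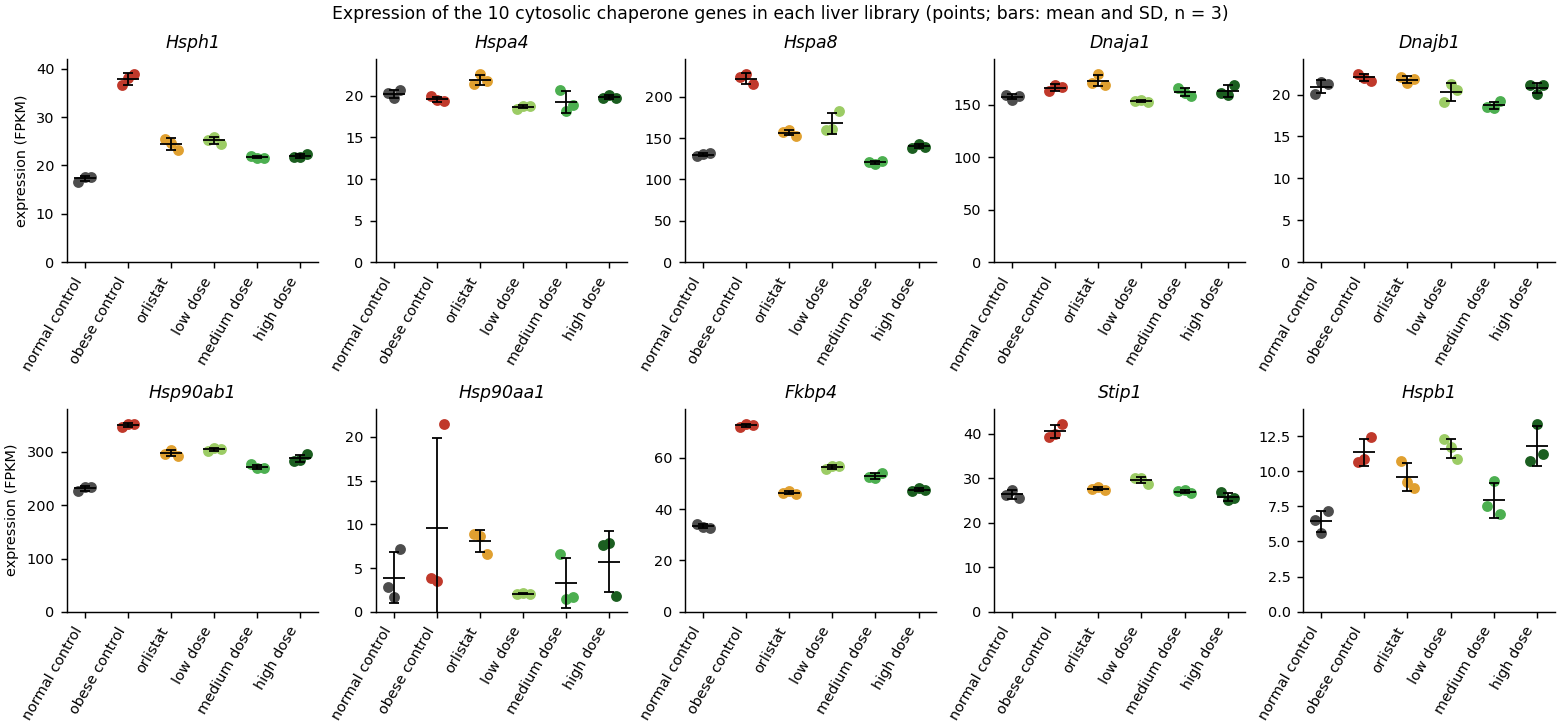
Level of each of the 10 chaperone genes in every library. The vertical axes give FPKM from 0, points are libraries coloured by group, and bars are the mean and SD of 3 libraries; for Hsp90aa1 in the obese control the SD bar runs below the axis. Hsph1, Hspa8, Hsp90ab1, Fkbp4 and Stip1 are highest in all 3 obese control libraries, Hspa4, Dnaja1 and Dnajb1 lie at similar heights in the 6 groups, and Hsp90aa1 scatters within groups, with 1 obese control library at 21.5 FPKM.

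Hspa8 (ENSRNOG00000034066), the constitutive HSP70 of the cytosol, lies on chromosome 8 from 44990014 to 44993179 on the plus strand, in the coordinates of the deposited table, whose build is not named. It stood at 128, 130 and 132 FPKM in the 3 normal control libraries and at 224, 227 and 215 FPKM in the obese control. With orlistat it was at 158, 160 and 153 FPKM. It was at 160, 161 and 182 FPKM at the low dose, 121, 119 and 123 at the medium dose, and 139, 143 and 139 at the high dose. The obese control was the highest group and the medium dose the lowest, and neither overlapped another group. The difference between the controls was 0.77 ± 0.04 (SE; adjusted p = 1.6e-10, limma). Against the obese control Hspa8 fell by 0.50 with orlistat, by 0.40 at the low, by 0.87 at the medium and by 0.66 at the high dose, each called. The low dose was above orlistat by 0.10, without overlap but not called (adjusted p = 0.066). That difference was called without low dose replicate 1 (0.13, adjusted p = 0.026) or 2 (0.12, adjusted p = 0.036). The medium dose was lower than the normal control by a margin just past the threshold (−0.11, adjusted p = 0.038), which quantile normalization (adjusted p = 0.17), the fit without the filter on low values (adjusted p = 0.068) and the omission of any of 5 of the 6 libraries took from the calls. The high dose was above the normal control by 0.11 (adjusted p = 0.039), a call lost in the fit without the filter (adjusted p = 0.068) and on the omission of any of the 6 libraries.

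Reads of Hspa8 could be shared with 3 rows described as similar to it. The most abundant of them, LOC680121, was at 17.1 to 19.1 FPKM in the normal control, 26.3 to 30.3 in the obese control, 10.2 to 14.6 with orlistat and 9.66 to 10.5 at the medium dose. It was thus highest in the obese control, as Hspa8 was, and at the medium dose below the normal control. With the 3 rows added to Hspa8, the high dose was no longer called against the normal control (0.05, adjusted p = 0.28), and the low dose was called above orlistat (0.17, adjusted p = 0.0011).

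Hsph1 (ENSRNOG00000000902; chromosome 12, 6322668 to 6341902, minus strand), the heat-inducible HSP110 that resets HSP70, was, like Fkbp4, at more than double the level in the obese control. It was at 16.7, 17.6 and 17.7 FPKM in the normal control and 36.6, 38.2 and 38.9 FPKM in the obese control. Levels were 25.5, 24.6 and 23.1 FPKM with orlistat and 25.2, 25.9 and 24.4 at the low dose. They were 21.9, 21.6 and 21.5 FPKM at the medium and 21.8, 21.7 and 22.3 at the high dose. All 12 treated libraries lay between the controls, overlapping neither. The controls differed by 1.08 ± 0.04 (adjusted p = 8.5e-13). Relative to the obese control Hsph1 fell by 0.61 with orlistat, by 0.57, 0.78 and 0.76 at the low, medium and high doses, and stayed above the normal control by 0.31 to 0.51 in the 4 treated groups, all called. Orlistat and the low dose did not differ beyond their spread (adjusted p = 0.39), nor did the medium and high doses (adjusted p = 0.83).

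Hspa4 (ENSRNOG00000016596; chromosome 10, 38601624 to 38642397, minus strand), the constitutive relative of Hsph1, showed no such gap. It was at 20.3, 19.7 and 20.7 FPKM in the normal control and 19.96, 19.5 and 19.4 FPKM in the obese control, groups that overlapped. The difference of −0.04 ± 0.04 was not called (adjusted p = 0.35). Under TPM the same comparison was called lower at −0.17, which is −0.06 after the shift of all genes on that scale, and with voom, a weighted limma fit of recovered reads, at −0.10 (adjusted p = 0.020). Orlistat stood apart with 21.4, 22.6 and 21.8 FPKM, above every other library of Hspa4. It was higher than the obese control by 0.16 (adjusted p = 0.0027). The low, medium and high doses had 18.7, 19.3 and 19.9 FPKM on average and were not called against the obese control, though the high dose was higher under TPM (0.19, or 0.04 after the shift) and with voom (0.10, adjusted p = 0.024).

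The balance of these relatives can be read within each library, where a scale factor cancels. The level of Hsph1 was 0.856 times that of Hspa4 in the normal control and 1.93 times in the obese control (geometric means). It was 1.11 with orlistat, 1.35 at the low, 1.13 at the medium and 1.10 at the high dose. The log2 ratio rose by 1.17 between the controls and was lower than in the obese control by 0.80 with orlistat, 0.52 at the low, 0.78 at the medium and 0.81 at the high dose, with pooled SDs of 0.05 to 0.08. Libraries did not overlap in any of these 5 comparisons. The exact two-sided permutation test gave p = 0.1 for each, the smallest value that 3 against 3 libraries allow (0.167 adjusted over 10 ratio tests), so the design cannot reach the threshold here.

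**Figure D3:**
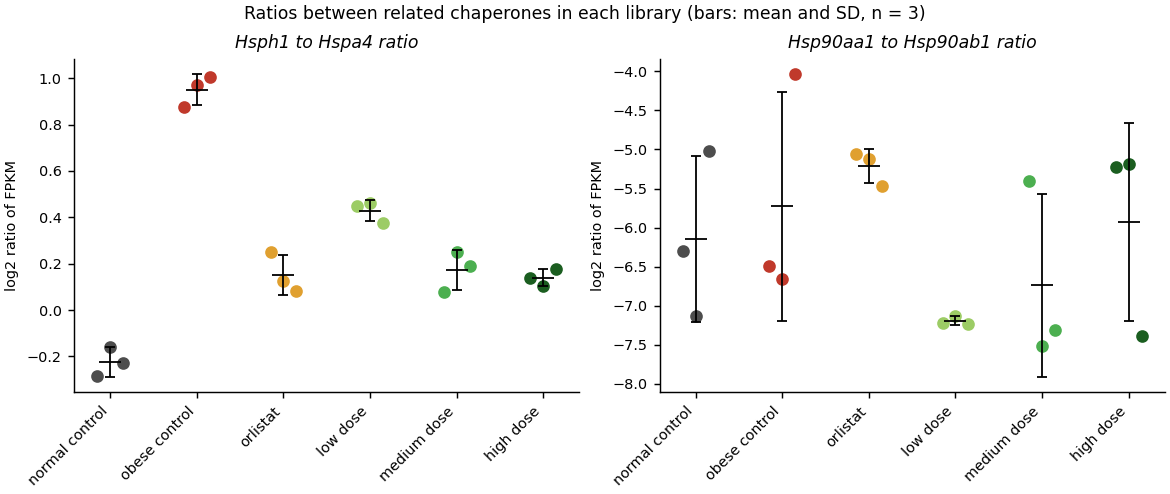
Log2 ratio of FPKM within each library for Hsph1 over Hspa4 (left) and Hsp90aa1 over Hsp90ab1 (right). Points are libraries and bars the mean and SD of 3 libraries. On the left the obese control lies above and the normal control below every treated library. On the right most groups overlap, and the vertical scale spans more than on the left.

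The J-domain genes moved little. Dnaja1 (ENSRNOG00000007029; chromosome 5, 57028467 to 57039378, plus strand) was at 160, 155 and 159 FPKM in the normal and 164, 170 and 167 FPKM in the obese control. These groups did not overlap, but they differed by only 0.08 ± 0.03 (adjusted p = 0.022). The call was lost under quantile normalization (0.02), with voom (0.03) and without any 1 of 3 libraries (normal control replicate 2, obese control replicates 2 and 3). Under TPM the sign turned (−0.04, or 0.06 after the shift). Dnaja1 was at 171, 179 and 169 FPKM with orlistat and 154, 155 and 153 at the low dose, its highest and lowest groups. The low dose was below the obese control by 0.11 (adjusted p = 0.0042). Orlistat was not called against the obese control (0.06, adjusted p = 0.093), but it was higher under quantile normalization (0.17), voom (0.14) and TPM (0.23, or 0.09 after the shift). The medium and high doses, at 162 and 163 FPKM on average, were not called against the obese control (−0.04 and −0.03), but under TPM the high dose was higher (0.15, or 0.00 after the shift).

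Dnajb1 (ENSRNOG00000021824; chromosome 19, 24747178 to 24750919, plus strand), a J-domain partner that heat strongly induces in many cells, was at 20.02, 21.5 and 21.2 FPKM in the normal control. In the obese control it was at 22.4, 22.01 and 21.7 FPKM, 0.07 ± 0.04 higher and not called (adjusted p = 0.12). The medium dose was the lowest group, at 18.5, 18.4 and 19.2 FPKM, and did not overlap either control. It fell below the obese control by 0.23 (adjusted p = 1.9e-04) and below the normal control by 0.15 (adjusted p = 0.0039). At the low dose, with 19.1, 21.2 and 20.5 FPKM, a difference of −0.11 from the obese control (adjusted p = 0.03) was lost under TPM (−0.08), without low dose replicate 1 (−0.07), without obese control replicate 1 or 2, and in a fit of these 2 groups alone. Orlistat at 21.8 FPKM and the high dose at 20.8 FPKM on average were not called, but under TPM orlistat was higher by 0.15, or 0.01 after the shift.

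Hsp90ab1 (ENSRNOG00000019834; chromosome 9, 17817721 to 17823243, plus strand), the constitutive HSP90, had the highest level of the 10 genes in every group. It was at 226, 235 and 233 FPKM in the normal and 346, 353 and 353 FPKM in the obese control. Orlistat had 296, 304 and 292 FPKM and the low dose 302, 307 and 306. The medium dose had 277, 271 and 270 FPKM and the high dose 283, 285 and 295. The controls again bracketed all 12 treated libraries. Their difference was 0.60 ± 0.02 (adjusted p = 1.4e-12). Hsp90ab1 fell below the obese control by 0.24 with orlistat and by 0.20, 0.36 and 0.28 at the low, medium and high doses, and it was above the normal control by 0.23 to 0.40 in the 4 treated groups, all called. The orlistat call against the obese control was lost under quantile normalization (−0.06, adjusted p = 0.066). The high dose was not called against orlistat (−0.05, adjusted p = 0.15), but it was lower under quantile normalization (−0.08, adjusted p = 0.037) and voom (−0.06, adjusted p = 0.016). The low dose was 0.04 above orlistat and not called (adjusted p = 0.19), whereas it was called lower under TPM (−0.09), quantile normalization (−0.13) and voom (−0.05).

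Hsp90aa1 (ENSRNOG00000059714; chromosome 6, 135107271 to 135112775, minus strand), the inducible HSP90, differed most between libraries of the same group. It was at 2.89, 1.68 and 7.18 FPKM in the normal and 3.85, 3.51 and 21.5 FPKM in the obese control. Orlistat had 8.89, 8.71 and 6.62 FPKM and the low dose 2.03, 2.20 and 2.03. The medium dose had 6.55, 1.48 and 1.699 FPKM and the high dose 7.60, 7.84 and 1.77. Only orlistat and the low dose were even within the group, and 1 library of each of the other 4 groups stood apart. The SD within groups was 0.83 on the log2 scale, the 77th widest of 11945 genes, whose median was 0.08. Hsp90aa1 passed neither the F-test over the 6 groups (adjusted p = 0.16) nor any of the 15 comparisons of groups, with 0.84 ± 0.61 between the controls (adjusted p = 0.26) and −1.36 at the low dose against the obese control (adjusted p = 0.11). The low dose was below orlistat by 1.55 (adjusted p = 0.06), which passed under TPM (−1.81, adjusted p = 0.039), in the fit of recovered reads (−2.02, adjusted p = 0.044) and in a fit of these 2 groups alone (adjusted p = 1.3e-04).

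The counts behind Hsp90aa1 were not low: between 80 and 1186 reads were recovered for it per library. Reads could be shared with LOC680491 and LOC103692716, rows of similar description. These stayed between 0.558 and 1.61 FPKM and between 0.219 and 0.790 FPKM, and in the obese control library with 21.5 FPKM of Hsp90aa1 they were at 1.61 and 0.227 FPKM. The log2 ratio of Hsp90aa1 to Hsp90ab1 differed between the controls by 0.42, with a pooled SD of 1.28 (exact permutation p = 0.7, two-sided). Against the obese control it was lower by 1.47 at the low dose (p = 0.1, the smallest possible) and by 1.01 and 0.20 at the medium and high doses, and higher by 0.51 with orlistat (exact p = 0.5, 1 and 0.5). Without 1 library of either control, the difference between the controls ran from −0.42 to 0.99.

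Fkbp4 (ENSRNOG00000006444; chromosome 4, 161748993 to 161757447, minus strand) encodes an immunophilin that rides on HSP90 in steroid receptor complexes. It was at 34.3, 33.0 and 32.6 FPKM in the normal and 72.0, 73.3 and 72.8 FPKM in the obese control. Orlistat had 46.4, 46.9 and 45.9 FPKM and the low dose 55.5, 56.9 and 56.9. The medium dose had 52.5, 52.0 and 54.1 FPKM and the high dose 47.0, 48.1 and 47.5. The 6 groups did not overlap at all, though high dose and orlistat were not called apart (0.03, adjusted p = 0.40), and the 3 plantain groups stood in falling order from low to high dose. The controls differed by 1.10 ± 0.02 (adjusted p = 2.8e-15). Against the obese control Fkbp4 fell by 0.64 with orlistat, and by 0.36, 0.45 and 0.60 at the low, medium and high doses. It remained 0.47 to 0.74 above the normal control in the 4 treated groups, all called. The step from low to medium dose was −0.09 (adjusted p = 0.0074), lost under TPM (−0.04), quantile normalization (−0.03) and voom (−0.04). The step from medium to high was −0.15 (adjusted p = 2.4e-04), lost under TPM (−0.07).

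Stip1 (ENSRNOG00000021164; chromosome 1, 222274133 to 222293148, minus strand), the adaptor that hands clients from HSP70 to HSP90, was at 26.3, 27.4 and 25.5 FPKM in the normal control. In the obese control it was at 39.3, 40.0 and 42.2 FPKM. Orlistat had 27.6, 28.03 and 27.4 FPKM and the low dose 30.02, 30.1 and 28.8. The medium dose had 27.0, 27.3 and 26.6 FPKM and the high dose 26.8, 25.1 and 25.6. Every obese control library was above every other library, and orlistat, the medium and the high dose overlapped the normal control. Stip1 was higher in the obese than in the normal control by 0.60 ± 0.03 (adjusted p = 4.6e-10) and fell from there by 0.53 with orlistat and by 0.44, 0.57 and 0.63 at the low, medium and high doses, all called. Against the normal control only the low dose was called (0.16, adjusted p = 9.7e-04), a call lost under TPM (0.08). The other differences were 0.07 ± 0.03 with orlistat, 0.03 ± 0.03 at the medium and −0.03 ± 0.03 at the high dose. Orlistat passed against the normal control under TPM (0.11), quantile normalization (0.13) and voom (0.11).

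Hspb1 (ENSRNOG00000023546; chromosome 12, 23839399 to 23841049, minus strand), the small heat shock protein, was at 6.52, 5.61 and 7.16 FPKM in the normal and 10.7, 10.9 and 12.5 FPKM in the obese control. Orlistat had 10.7, 9.26 and 8.83 FPKM, the low dose 12.3, 11.7 and 10.9 and the high dose 10.7, 13.4 and 11.2. At the medium dose it was at 7.51, 9.32 and 6.96 FPKM. Hspb1 therefore differed from Hspa8 and Hsp90ab1 in that it stood at the level of the obese control at the low and high doses. Its mean at the medium dose lay between the controls, and its libraries there overlapped the normal control. It was higher in the obese than in the normal control by 0.73 ± 0.11 (adjusted p = 2.9e-05). The medium dose was not called against the normal control (0.26, adjusted p = 0.059), but it was higher under quantile normalization (0.30, adjusted p = 0.036), without medium dose replicate 3 (0.34) and without normal control replicate 3 (0.33). It was lower than the obese control by 0.47 (adjusted p = 0.0023), while orlistat (−0.22), the low (0.03) and the high dose (0.05), each ± 0.11, were not called. Between 126 and 254 reads were recovered for Hspb1 per library. Its highest count was below the highest count of each other member, and only Hsp90aa1 had a lower minimum (80 reads).

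**Figure D4:**
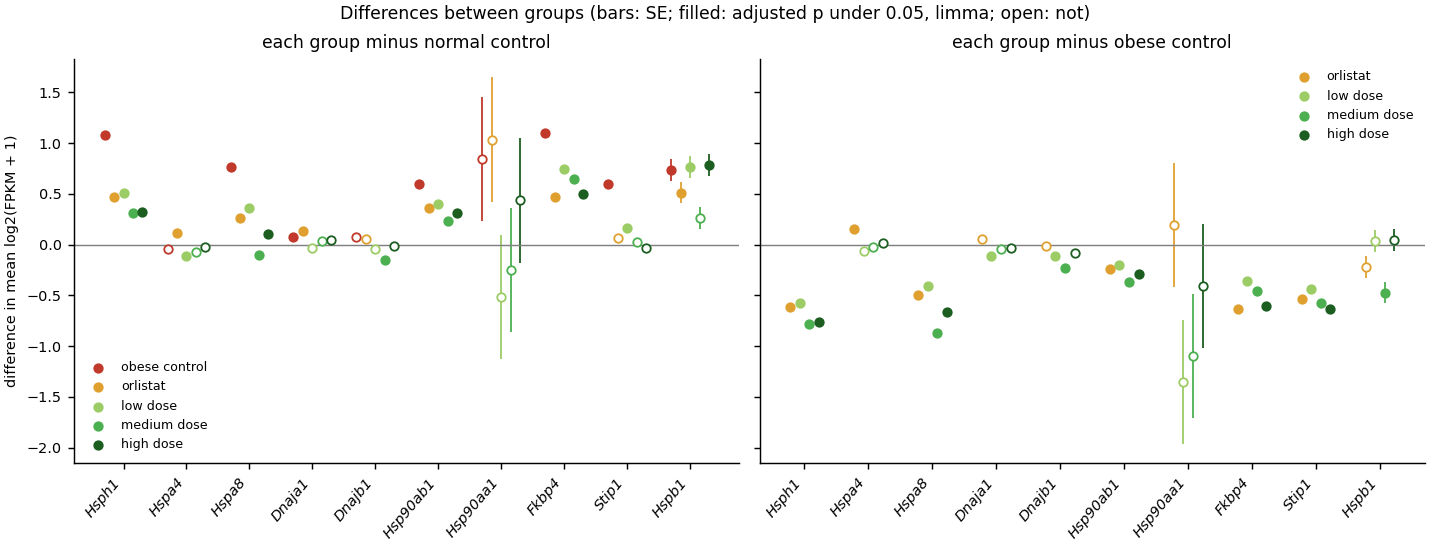
Difference in mean log2(FPKM + 1) of each chaperone gene from the normal control (left) and from the obese control (right). Points are group differences with bars of 1 SE, filled where the adjusted p was under 0.05 (limma) and open where it was not. On the right Hsph1, Hspa8, Hsp90ab1, Fkbp4 and Stip1 are filled and below 0 in all 4 treatments; the 4 points of Hsp90aa1 are open and have the longest bars.

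Counted over the 10 genes, orlistat against the obese control gave 5 lower and 1 higher, where 51.8% of all genes were called (25.6% lower), and 5 lower and 3 higher under TPM (4 lower and 2 higher after quantile normalization). The low dose gave 7 lower and none higher beside 33.0% of all genes, with 14.8% lower. At the medium dose 7 were lower and none higher beside 41.9% (20.1% lower). At the high dose 5 were lower and none higher beside 51.9% (25.3% lower), or 5 lower and 2 higher under TPM (5 and 1 with voom). The medians of the 10 were −0.23 with orlistat, −0.28 at the low, −0.46 at the medium and −0.35 at the high dose, while those of all genes were within 0.01 of 0. These 4 comparisons share the obese control libraries. Hsph1, Hspa8, Hsp90ab1, Fkbp4 and Stip1 were lower in each of the 4.

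Against the normal control, 7 of the 10 genes were higher with orlistat (44.1% of all genes called, 19.8% higher). At the low dose 6 were higher and 1 lower (47.8%, 22.8% higher), or 5 higher and 3 lower under TPM. At the medium dose 3 were higher and 2 lower (45.3%, 21.1% higher and 24.2% lower), or 4 and 1 after quantile normalization. At the high dose 5 were higher (42.4%, 19.5% higher). Hsph1, Hsp90ab1 and Fkbp4 were higher in all 4 treated groups, and the 2 lower at the medium dose were Hspa8 and Dnajb1. The 1 gene lower at the low dose was Hspa4 (−0.11, adjusted p = 0.027), a call lost without low dose replicate 1 or normal control replicate 1 or 3.

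The treated groups also differed among themselves. The low dose gave 2 genes higher and 2 lower than orlistat (36.8% of all genes called, 19.3% higher and 17.5% lower), and 1 higher and 5 lower under TPM. Fkbp4 was higher there by 0.28 (adjusted p = 1.8e-07), and Hspa4 and Dnaja1 were lower by 0.22 and 0.17. The medium dose gave 6 lower and 1 higher than orlistat (26.9%, 13.1% lower), with Hspa8 lower by 0.37 (adjusted p = 3.7e-06) and Fkbp4 higher by 0.18. The high dose gave 4 lower (15.1%, 6.67% lower), Hspa8 by 0.16, Hsph1 by 0.15, Hspa4 by 0.14 and Dnaja1 by 0.09, with 2 when these groups were fitted alone, 6 after quantile normalization and 5 with voom. The call of Hsph1 was lost without orlistat replicate 1, and those of Hspa4 and Dnaja1 were each lost on the omission of any of 4 of the 6 libraries.

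From low to medium dose 7 of the 10 genes were lower and none higher (23.0% of all genes called, 12.2% lower), or 4 lower and 1 higher under TPM. Hspb1 was lower by 0.51 (adjusted p = 0.0027) and Hspa8 by 0.47 (adjusted p = 3.2e-07). From medium to high dose 4 were higher and 1 lower (20.3%, 10.3% higher), or 6 higher and none lower under TPM, with Hspb1 higher by 0.52 (adjusted p = 0.0028) and Hspa8 by 0.21 (adjusted p = 0.0012). High against low dose gave 5 lower and 1 higher (32.7%, 16.4% lower), but 2 lower and 4 higher under TPM. Hspa8 was lower there by 0.26 (adjusted p = 1.4e-04) and Fkbp4 by 0.24 (adjusted p = 9.7e-07). In mean level Hspa8, Hspb1, Hsp90ab1 and Dnajb1 did not follow the order of the doses, since the medium dose was their lowest plantain group. Hsp90ab1 averaged 305, 272 and 288 FPKM from the low to the high dose, and Dnajb1 20.3, 18.7 and 20.8 FPKM. Hsph1 was also lowest at the medium dose, at 21.7 FPKM beside 21.9 FPKM at the high dose, which were not called apart. The means of Fkbp4 and Stip1 fell from the low to the high dose.

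Over the 18 libraries, which share 6 groups, the levels of Hsph1 correlated with those of Hsp90ab1 (Pearson r = 0.95), Stip1 (0.92), Fkbp4 (0.91) and Hspa8 (0.90). Hspa4 stood apart from this set, with r = −0.13 to Hsph1 and 0.70 to Dnaja1. The 10 genes with the pattern most like the mean of the scaled levels of the 10 chaperones were Clock (r = 0.94), Synj2 and Dapk1 (0.93 each), Arntl and Ahr (0.92 each), Cald1 and Znrf2 (0.91 each), Nfya and Abhd3 (0.90 each) and Tpm4 (0.89). Among those least like it were Cdk18 (−0.96), Tmem97, Dbp and Klf16 (−0.94 each). Arntl and Clock encode the transcription factor pair at the core of the circadian clock, and Dbp is a clock output gene. Arntl averaged 0.297 FPKM in the normal and 6.05 FPKM in the obese control, and 2.28, 2.01, 0.785 and 0.845 FPKM with orlistat and at the low, medium and high doses. Dbp ran the other way, from 152 FPKM in the normal to 49.9 FPKM in the obese control and 83.8 to 113 FPKM in the treated groups. Whether clock phase had a part in the chaperone values was not tested. Tmem97, which acts in cholesterol transport, was lowest in the obese control as well, at 23.0 FPKM.

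The other chaperone genes were read from fixed lists for comparison. Among the folding enzymes of the endoplasmic reticulum, 10 of 12 were higher and 1 lower in the obese control, and 10, 11, 11 and 11 of 12 were lower with orlistat and the low, medium and high doses, with none higher. Of all genes 26.7% were higher in the obese control, and 25.6%, 14.8%, 20.1% and 25.3% were lower in those treatments. Hspa5, the HSP70 of that compartment, went from 224 to 390 FPKM between the controls (0.80, adjusted p = 9.2e-16) and was 1.06 lower at the high dose than in the obese control. Hyou1, its HSP110, went from 30.004 to 65.05 FPKM (1.09, adjusted p = 2.2e-12), and fell by 1.41 with orlistat. Hsp90b1, its HSP90, rose by 0.64. Under TPM 2 of the 12 were higher and 8 lower with orlistat, 1 and 11 at the medium dose and 1 and 8 at the high dose. Quantile normalization gave 1 higher and 9 lower with orlistat and 1 and 11 at the high dose.

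Mitochondrial chaperones mostly went the other way, with 6 of 8 lower and 2 higher in the obese control, where 28.4% of all genes were lower. Hspa9, the HSP70 of mitochondria, fell by 0.37 (adjusted p = 6.9e-09) and Hspd1, their HSP60, by 0.22. Clpx, a protease unfoldase, rose by 0.67 (adjusted p = 5.2e-12). Against the obese control Hspa9 and Hspd1 were higher in all 4 treatments, by 0.24 to 0.41 and by 0.13 to 0.29, while Clpx was lower in all 4.

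The TRiC chaperonin and prefoldin, which fold actin and tubulin, gave 10 of 14 higher and 1 lower in the obese control (26.7% and 28.4% of all genes), but 4 higher and 1 lower under TPM. With orlistat 9 of 14 were lower (5 lower and 3 higher under TPM), and 4, 11 and 8 were lower at the low, medium and high doses, with 1, 0 and 1 higher. Of all genes 25.6% were lower with orlistat, and 14.8%, 20.1% and 25.3% at the low, medium and high doses. Under TPM those doses gave 2, 5 and 5 lower and 2, 1 and 4 higher. Cct3 rose by 0.39 in the obese control (adjusted p = 6.8e-06) and Pfdn5 by 0.31, whereas the subunit Tcp1 fell by 0.16.

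Partners of the 10 chaperones were called in both directions, and the split moved with the scale. Of 17 other HSP90 cochaperones, 4 were higher and 4 lower in the obese control, a share near that of all genes (55.1%), or 1 higher and 9 lower under TPM. Ahsa1, which speeds the ATPase of HSP90, rose by 0.52 (adjusted p = 2.1e-07) and was lower in all 4 treatments by 0.24 to 0.40. Fkbp5, the relative of Fkbp4 that glucocorticoids induce, moved the opposite way to Fkbp4. It fell from 14.1 to 6.38 FPKM (−1.04, adjusted p = 4.1e-09) and was called against the obese control only at the low dose (0.30, adjusted p = 0.0034). Of 14 other J-domain genes 5 were higher and 6 lower (2 and 6 under TPM), and Dnaja2, close kin of Dnaja1, went from 47.1 to 28.7 FPKM between the controls (−0.70, adjusted p = 1.4e-10). Dnaja2 was higher than the obese control in all 4 treatments, by 0.33 to 0.67. Among 8 partners of HSP70, 3 were higher and 4 lower in the obese control, with Bag1 up by 0.37 and St13 and Bag3 down by 0.42 and 0.39.

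Hsf1 itself, at 4.25 FPKM in the normal and 4.14 FPKM in the obese control, did not pass between the controls (−0.03, adjusted p = 0.78). It was lower than the obese control with orlistat (−0.21, adjusted p = 0.049) and at the medium dose (−0.26, adjusted p = 0.023), but both calls were lost under TPM (−0.08 and −0.20) and on the omission of obese control replicate 2 or 3, among other libraries. Hsbp1, which binds the factor and restrains it, was higher in the obese control by 0.32 (adjusted p = 3.7e-07). Hspa1b, a strongly heat-inducible HSP70, was low throughout, at 0.912 FPKM in the normal and 0.643 FPKM in the obese control, and was highest with orlistat at 2.44 FPKM (1.06 above the obese control, adjusted p = 4.1e-06).

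**Figure D5:**
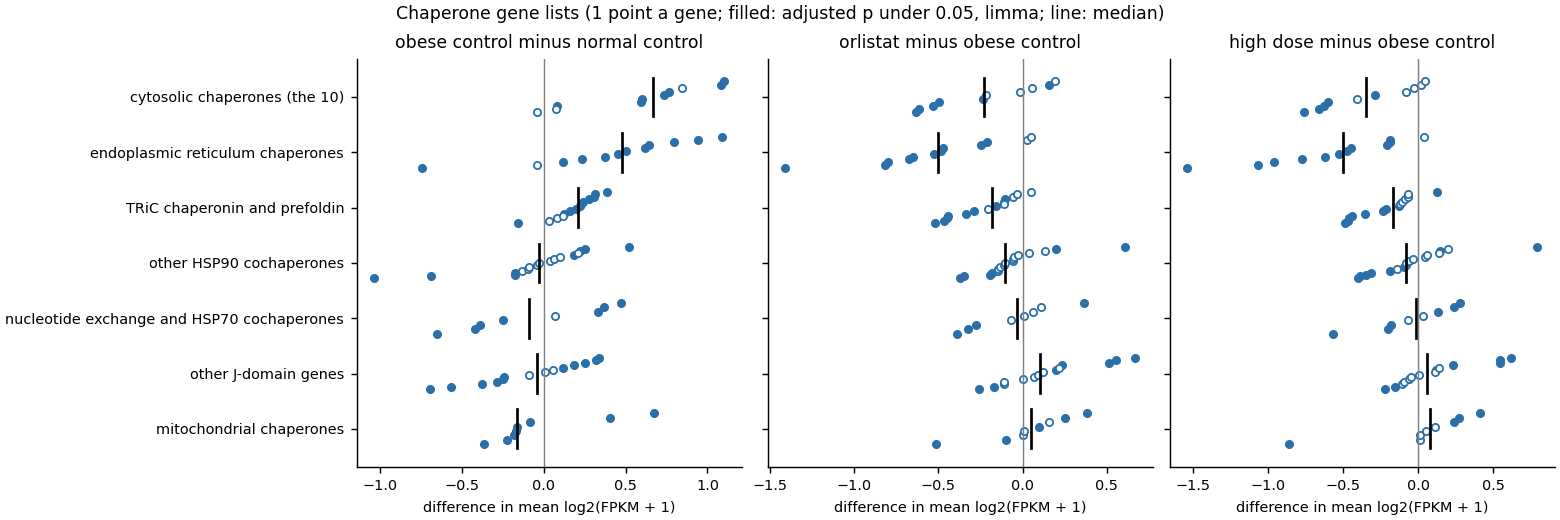
Differences in mean log2(FPKM + 1) for 7 lists of chaperone genes in 3 comparisons. Each point is a gene, filled where the adjusted p was under 0.05 (limma), and vertical lines mark list medians. The medians of the 10 cytosolic chaperones and of the endoplasmic reticulum list lie to the right of 0 on the left panel (0.67 and 0.48) and to the left of 0 on the others, while the lists of HSP90 and HSP70 partners and J-domain genes scatter on both sides.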

How the data were processed

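The authors deposited 1 table of FPKM for 18 liver libraries and 33657 genes; per the file headers it also gives each gene's length, coordinates, type and symbol. Per the labels' protocols, libraries were made from 1 µg of RNA of frozen liver with an Illumina kit. CASAVA 1.7, Bowtie 0.12.2 and the mouse build mm8 are named per the submitters' processing notes, while the identifiers are of rat; no source used here gives the rat build, annotation release or strand setting. FPKM times gene length gave whole multiples of 1 step for 100% of values (tolerance 0.001), from which reads were recovered. The total implied by the scaling was 0.966 to 1.05 times the recovered total. Its mean was lowest in the obese control (0.974 ± 0.005, SD, n = 3) and highest with orlistat (1.04 ± 0.012), so scale and group cannot be told apart.

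Genes reaching 1 FPKM in 3 or more libraries were tested as log2(FPKM + 1) with limma 3.58.1 (R 4.3.3), with a mean-variance trend, all 6 groups in 1 fit, no covariate, two-sided tests and Benjamini-Hochberg adjustment over all genes within a comparison (threshold 0.05). A fold on this scale understates the change of low genes. Ratios within libraries were compared by exact permutation. The fit was first tested on simulated data with known changes. It recovered 93% of changes of 1 on the log2 scale but 55% of the smaller changes put in, with 4.5% of calls false. In the simulation 200 of 11945 genes were changed, whereas 55.1% of all genes were called between the controls in the data. These rates thus need not hold for the data. Small differences can still go uncalled. No 2 libraries of the same group agreed within counting noise.

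The 10 genes and the lists were chosen with earlier results of these data known. Of other lists, up to 4 members with the smallest F-test p are named (all members of lists of 2 to 5 genes); likeness is Pearson's r over 18 libraries to the mean scaled level of the 10 genes, for the 10 highest and 5 lowest genes with a symbol. Not every gene these rules pick is reported here. Alternatives were a pseudocount of 0.1, no filter, TPM, quantile normalization, voom on recovered reads, only the 2 groups compared, a replicate block and each library left out; summing with similar rows, and list counts on other scales, were chosen after seeing the data. Hspa1a, Nr3c1 and some markers were not analysed here.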

Additional observations from a re-analysis of the deposited data

How the results depend on the processing

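The calls of Hsph1, Fkbp4, Hspa8, Hsp90ab1 and Stip1 in the obese against the normal control kept their direction and stayed below the threshold under all alternatives run. Relative scale sets the limits elsewhere. Under TPM the summed level of the 10 genes was 1168 in the normal control, 1576 in the obese control, 1465 with orlistat, and 1347, 1246 and 1394 at the low, medium and high doses. Under TPM these differences, each called on FPKM, on TPM or on both, changed sign: Dnaja1 between the controls (−0.045) and at the high dose against the obese control (0.15), Dnajb1 with orlistat against the obese control (0.15), Hsp90ab1 (−0.091) and Stip1 (−0.029) at the low dose against orlistat, Hsp90ab1 at the high against the low dose (0.052), Hspb8 between the controls (−0.0071) and at the high dose (0.14), Ahr with orlistat (0.051), and Hsbp1 (0.0026) and Tcp1 (0.0080) at the medium dose. Hsp90ab1 at the low dose against orlistat also reversed after quantile normalization (−0.13) and with voom (−0.048), and at the high against the low dose after quantile normalization (0.045). The cause was not tested. With only the 2 groups fitted, 2 genes were called at the high dose against orlistat (4 in the full fit) and 3 at the high against the medium dose (5 in the full fit). With each library left out in turn these counts ran from 2 to 3 and from 3 to 6; fewer libraries enter these fits. Replicate numbers did not pair the libraries: correlations of same-numbered deviations ran from −0.09 to 0.07 and 2 of 18 libraries were closest to their own number. With a replicate block, 7 genes were called between the controls, and 6, 7, 7 and 5 against the obese control with orlistat and the low, medium and high doses, as without it; the block took the calls of Hspa8 at the medium and high doses against the normal control, of Stip1 at the low dose and Dnaja1 at the high dose against orlistat, and of Dnajb1 at the medium against the low dose.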

Other observations

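Receptors that HSP90 holds ready for their ligands were measured beside the chaperones. Ahr, the receptor for dioxins and related ring compounds, was at 5.46 FPKM in the normal and 8.77 FPKM in the obese control, a rise of 0.60 (adjusted p = 6.7e-09, limma). It was lower than the obese control by 0.38, 0.51 and 0.50 at the low, medium and high doses, and by 0.10 with orlistat (adjusted p = 0.049), a difference that turned to 0.05 under TPM. Nr3c2, the mineralocorticoid receptor, moved the opposite way at low levels. It averaged 1.80 FPKM in the normal and 0.845 FPKM in the obese control (−0.61, adjusted p = 4.6e-04), and was higher than the obese control with orlistat (0.68), at the medium (0.67) and at the high dose (0.76), while the low dose was not called (0.23, adjusted p = 0.16).

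The cold-inducible RNA-binding genes Cirbp and Rbm3, which rise when cells cool, were lower in the obese than in the normal control by 0.21 (adjusted p = 0.0097) and 0.30 (adjusted p = 9.1e-04). Cirbp was higher than the obese control at the medium dose (0.26) and lower with orlistat (−0.29) and at the high dose (−0.16), calls that TPM took away (−0.14 and −0.0012), and Rbm3 passed in none of the 4 treatments. Among other small heat shock proteins, Cryab rose from 0.772 to 1.42 FPKM between the controls (0.42, adjusted p = 0.025, lost without any 1 of 4 libraries and in a fit of the controls alone), Hspb8 by 0.11 (adjusted p = 0.015; −0.01 under TPM), and Hspb11 fell by 0.42 (adjusted p = 0.0076).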
